A study of Mus musculus with 3 samples.

Results

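The neurotransmitter and neuropeptide G protein-coupled receptors on this array were the spots whose gene symbol names a receptor of 15 families: muscarinic acetylcholine, alpha-1, alpha-2 and beta adrenergic, dopamine, serotonin, histamine, metabotropic glutamate, adenosine, P2Y nucleotide, opioid, somatostatin, neuropeptide Y, neurotensin and tachykinin. The rule used the symbols alone and no measured value. It found 73 spots of 69 gene symbols among the 21761 gene probes of the array. Chrm1 and Sstr5 had 2 spots each and Drd1a had 3 spots, and the remaining genes had 1 spot each. The current symbol of Drd1a is Drd1. P2ry5 is now called Lpar6, a receptor for lysophosphatidic acid and not for nucleotides, and it was kept because the rule took it by its older name.

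The measurements came from N1E-115, a mouse neuroblastoma line with sympathetic neuron traits, on 3 spotted arrays that each held 2 RNAs. One RNA came from cells that received pEGFP-NaV1.2CT-Flag, which encodes EGFP fused to 229 residues of the carboxyl end of the mouse sodium channel NaV1.2 (Scn2a), called NaV1.2CT here, and the other from cells that received pEGFP-C1, which encodes EGFP. Each log2 ratio below is NaV1.2CT over EGFP on 1 array, with 1 array at 5 mM glucose and 2 arrays at 20 mM glucose. Both groups were transfected with polyethylenimine (PEI) and 2 µg of plasmid, RNA was taken 48 h later, and the RNA of 3 dishes was pooled. Both groups therefore carried EGFP, and the labels do not state how many of the cells took up plasmid. On every array NaV1.2CT was labelled with Alexa647 and EGFP with Alexa555, so the dye and the plasmid cannot be told apart. Separate cultures for the 3 arrays are not stated in the labels, and each p measures the spread between these arrays only. In a pooled culture, fewer cells that make a transcript and less of it per cell cannot be told apart.

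G protein-coupled receptors cross the membrane as a bundle of helices and pass a signal from a transmitter outside to a G protein inside. Receptors of the Gs class raise cyclic AMP, those of the Gi class lower it and open potassium channels, and those of the Gq class activate phospholipase C and release calcium from stores. N1E-115 cells have long served to study muscarinic, histamine H1 and neurotensin receptors, and delta opioid receptors were described in related neuroblastoma lines.

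Nearly all receptor spots gave signal above that of empty spots, as did most gene probes, but brightness did not identify the transcript. A spot was taken as above the empty limit when its background-subtracted intensity exceeded, in each channel, the 95th percentile of the empty spots. Of the 73 receptor spots, 72 passed this limit at 5 mM glucose, and 72 and 71 on the 20 mM arrays. Of all gene probes, 92% passed it at 5 mM, and 92.4% and 91.5% on the 20 mM arrays. The limit was passed on all 3 arrays by 70 of the receptor spots, and the exceptions were Adrb3, Grm5 and Htr1b. Ranked by A, the mean log2 intensity of both channels, among all gene probes, the receptor spots had a median percentile of 61.4. The median for 15 spots of sympathetic neuroblastoma markers was 67.5, with Chga, a secretory granule protein, at 98.9 and Phox2a, a noradrenergic transcription factor, at 13.1. Marker spots of cell types not expected in this line gave signal too. Their median percentile was 62.2 for glia, 57.6 for fibroblasts and 47.6 for blood, liver and muscle. The limit was passed on every array by all 10 glial, 6 of the 9 fibroblast and all 6 blood, liver and muscle spots. The fibroblast spots ranged from percentile 0.928 to 88.9. The brightest of them, at 88.9 and 83.6, were spots of Thy1, which neurons also make, so their signal is not unexpected here. The 3 Drd1a spots, all named for the D1 dopamine receptor, lay at percentiles 42.5, 90.6 and 88.9. Each gene name below therefore stands for the spot that carries it, and the brightness of different spots is not compared.

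NaV1.2CT and EGFP cells differed little in the receptor spots, and 6 of the 73 passed the test over all 3 arrays. Drd4 (dopamine D4 receptor), Tacr1 (substance P receptor NK1), Sstr3 (a somatostatin receptor) and Grm8 (a metabotropic glutamate receptor) were higher in NaV1.2CT cells, and Hrh1 (histamine H1 receptor) and 1 of the 2 Sstr5 spots (a somatostatin receptor) were lower. The share that passed was 8.22%, where 3.85% of all gene probes passed, by limma with Benjamini-Hochberg adjustment over all probes at a threshold of 0.05. Of all probes, 1.17% passed as higher and 2.68% as lower. At an unadjusted p under 0.05 the shares were 27.4% of receptor spots and 24% of all probes. The changes were small, with mean log2 ratios over the receptor spots between -0.19 and 0.24 and a median of -0.00494. The median size of a receptor's mean log2 ratio was 0.0593. The 4 higher and 2 lower calls became 1 and 2 after a second loess over intensity or with a background offset of 16. In these fits 3.68% and 3.07% of all probes passed, in that order. The receptor calls became 12 and 18 with loess over the whole array, where 34.9% of all probes passed. With median centring they became 15 and 14, where 40.4% did. No receptor spot passed with plain background subtraction or from either kind of the authors' net values. In those fits at most 0.0184% of all probes passed, so few calls of any kind were there to be had.

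**Figure D1:**
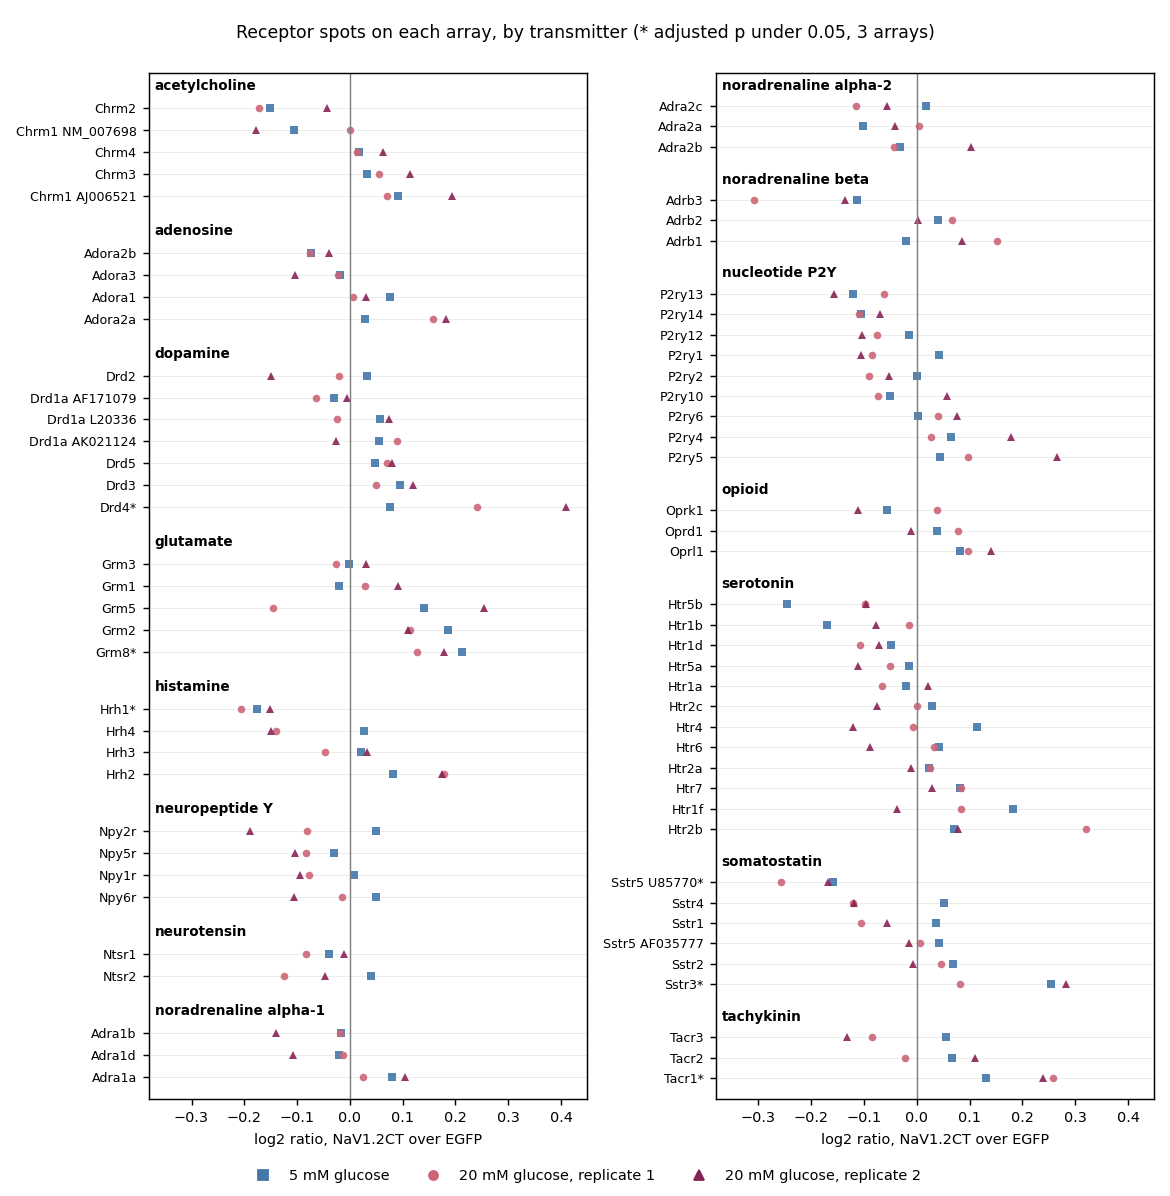
Log2 ratio of NaV1.2CT over EGFP (x axis) for each of the 73 receptor spots (rows, grouped by transmitter), with 1 symbol per array and an asterisk on the 6 spots with an adjusted p under 0.05 over 3 arrays. Most symbols lie close to 0, and 39 of the 73 spots lie on 1 side of 0 on every array.

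The arrays agreed on direction for 39 of the 73 receptor spots, of which 21 were higher and 18 lower in NaV1.2CT cells on every array. That is 53.4% of receptor spots, where 46.9% of all probes kept 1 sign. The Spearman correlation of log2 ratios across the 73 receptor spots was 0.552 between the 5 mM array and 20 mM replicate 1, 0.525 between the 5 mM array and replicate 2, and 0.623 between the 20 mM replicates. Across all 21761 probes these correlations were 0.437, 0.322 and 0.501, in the same order. They are descriptions, since the arrays share the dye orientation and spot positions. The SD of the log2 ratio across receptor spots was 0.0892 at 5 mM and 0.110 and 0.128 at 20 mM, close to the 0.103, 0.0993 and 0.111 of all probes.

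Among the receptors for amines, the dopamine family held the largest mean ratio. Drd4 encodes a receptor of the Gi class. Its raw intensity was 32054 in NaV1.2CT and 25242 in EGFP cells at 5 mM glucose. At 20 mM it was 41473 in NaV1.2CT and 28268 in EGFP cells in replicate 1, and 45063 in NaV1.2CT and 28004 in EGFP cells in replicate 2. NaV1.2CT cells were brighter on every array, and the 5 mM array differed least. Such a raw excess was not particular to the calls. Oprd1, a bright spot that did not pass, was also brighter in NaV1.2CT cells on every array. At 5 mM it read 26759 against 22325, and its normalized mean was 0.04. Htr2b, also bright, was dimmer at 5 mM, at 15173 against 16142. The normalized log2 ratios of Drd4 were 0.08 at 5 mM and 0.24 and 0.41 at 20 mM. Their mean was 0.24 ± 0.17 (SD, n = 3 arrays), with a limma adjusted p of 0.0495. Of the 7 dopamine receptor spots, 5 had a mean above 0 and 6 did not pass.

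Hrh1 was the one histamine receptor spot that passed. It encodes the H1 receptor, which acts through Gq. Raw intensity was 7172 in NaV1.2CT and 8658.5 in EGFP cells at 5 mM glucose. At 20 mM it was 4058 in NaV1.2CT and 4835 in EGFP cells in replicate 1, and 4047.5 in NaV1.2CT and 4738 in EGFP cells in replicate 2. NaV1.2CT cells were dimmer on each array, as were the gene spots in general, whose median raw intensity was 1354 in NaV1.2CT and 1706 in EGFP cells at 5 mM. The normalized log2 ratios were -0.18 at 5 mM and -0.21 and -0.15 at 20 mM, the narrowest range of the 6 spots that passed, with a mean of -0.18 ± 0.028 (SD, n = 3 arrays) and an adjusted p of 0.0331. With median centring alone the mean was 0.02. With loess over the whole array, all 4 histamine receptor means, that of Hrh1 included, were below 0. The fall was thus absent where neither print block nor brightness was corrected. As reported, Hrh2, which encodes the Gs-coupled H2 receptor, had a mean on the other side of 0 from Hrh1. That mean, named after its values were seen, was 0.14 with a limma adjusted p of 0.0612.

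The serotonin receptors, the largest family with 12 spots, had no spot that passed, and 4 of the 12 means were above 0. Htr2b, a Gq-coupled receptor, had the highest mean, 0.16 ± 0.14 (SD, n = 3 arrays), with log2 ratios of 0.07 at 5 mM and 0.32 and 0.08 at 20 mM and an adjusted p of 0.110. One array, 20 mM replicate 1, stood well above the others for it. The lowest mean of the family was that of Htr5b, a Gi-class receptor spot named after its values were seen, at -0.15 with an adjusted p of 0.0771.

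None of the 9 adrenergic receptor spots passed. Adra1a, which acts through Gq, had log2 ratios of 0.08, 0.03 and 0.10. Adrb1, the beta-1 receptor of the Gs class, had -0.02 at 5 mM and 0.15 and 0.09 at 20 mM. The 3 alpha-2 spots, receptors that in sympathetic neurons restrain noradrenaline release, all changed sign between arrays, with Adra2c at 0.02, -0.11 and -0.06. Adrb3 (beta-3 receptor), named after its values were seen, was just outside the threshold with log2 ratios of -0.11, -0.31 and -0.14 and an adjusted p of 0.0524, and it was above the empty limit on 2 of the 3 arrays.

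The muscarinic spots, receptors for which N1E-115 is a standard model, did not pass. Chrm4, the Gi-coupled M4 receptor, had log2 ratios of 0.02, 0.01 and 0.06, with a mean of 0.03 and a 95% interval from -0.05 to 0.11. Chrm2, also Gi-coupled, had the largest mean in size, -0.12, with -0.15, -0.17 and -0.04 on the arrays and an adjusted p of 0.0993. Chrm1, the Gq-coupled M1 receptor, gave opposite signs from its spots. The mean was 0.12 for the spot of sequence AJ006521 (0.09, 0.07 and 0.19) and -0.09 for that of NM_007698 (-0.11, 0.00 and -0.18), with adjusted p values of 0.107 and 0.204 in that order.

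All 5 metabotropic glutamate receptor spots had a mean above 0, and 1 of them passed. The lowest mean was 0.001, and 2 of the 5 kept their sign on every array, where 46.9% of all probes did. Grm5 was not above the empty limit on every array. Grm8 encodes a Gi-coupled receptor that sits at presynaptic endings. Its raw intensity was 38630 in NaV1.2CT and 33399 in EGFP cells at 5 mM glucose. At 20 mM it was 50835 in NaV1.2CT and 43947 in EGFP cells in replicate 1, and 58384 in NaV1.2CT and 48838 in EGFP cells in replicate 2. As for Oprd1, which did not pass, NaV1.2CT cells were brighter on every array. The log2 ratios were 0.21 at 5 mM and 0.13 and 0.18 at 20 mM, with a mean of 0.17 ± 0.043 (SD, n = 3 arrays) and an adjusted p of 0.0380. The sign of Grm8 turned with loess over the whole array, to -0.10, where 3 of the 5 family means were above 0. From plain background subtraction, and from the authors' net intensities with loess or as a ratio, 4 of the 5 were above 0.

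Among the receptors for nucleosides and nucleotides, none of the 4 adenosine and 9 P2Y spots passed. Adora2a, the Gs-coupled A2a receptor, had log2 ratios of 0.03 at 5 mM and 0.16 and 0.18 at 20 mM, with an adjusted p of 0.110. The spot listed as P2ry5 had the largest mean in size of the P2Y names, 0.14, with 0.04, 0.10 and 0.27 on the arrays and an adjusted p of 0.119. Of the 9 spots, 3 had a mean above 0.

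The peptide receptors held the other calls. Tacr1 encodes the Gq-coupled receptor for substance P, and its spot was dim, at brightness percentile 17.04. Its raw intensity was 311 in NaV1.2CT and 456 in EGFP cells at 5 mM glucose. At 20 mM it was 262 in NaV1.2CT and 339.8 in EGFP cells in replicate 1, and 219.6 in NaV1.2CT and 259.9 in EGFP cells in replicate 2. The raw signal was thus lower in NaV1.2CT cells on every array, and the ratio was above 0 only relative to spots of the same print block and brightness. The normalized log2 ratios were 0.13 at 5 mM and 0.26 and 0.24 at 20 mM, with a mean of 0.21 ± 0.068 (SD, n = 3 arrays) and an adjusted p of 0.0297. The mean was -0.01 with loess over the whole array and -0.11 with median centring. The other 2 tachykinin receptor spots did not pass.

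Of the 6 somatostatin receptor spots, all for Gi-coupled receptors, Sstr3 was higher and 1 of the 2 Sstr5 spots was lower in NaV1.2CT cells. Sstr3 had a raw intensity of 41650 in NaV1.2CT and 28185 in EGFP cells at 5 mM glucose. At 20 mM it was 64856 in NaV1.2CT and 41950 in EGFP cells in replicate 1, and 62853 in NaV1.2CT and 36853 in EGFP cells in replicate 2. As for Oprd1, which did not pass, NaV1.2CT cells were brighter on each array. Both 20 mM readings of NaV1.2CT lay just below 65535, the highest reading on any array. A reading cannot pass that value, and the part of this limit in the 20 mM ratios was not tested. The log2 ratios were 0.25 at 5 mM and 0.08 and 0.28 at 20 mM, with a mean of 0.21 ± 0.11 (SD, n = 3 arrays) and an adjusted p of 0.0420.

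The Sstr5 spot of sequence U85770 read 7539.8 in NaV1.2CT and 8591 in EGFP cells at 5 mM glucose. At 20 mM it read 4857 in NaV1.2CT and 6341 in EGFP cells in replicate 1, and 4238.5 in NaV1.2CT and 5299.6 in EGFP cells in replicate 2. NaV1.2CT cells were dimmer on each array, as were the gene spots in general. The median raw intensity of gene spots was 1354 in NaV1.2CT and 1706 in EGFP cells at 5 mM. At 20 mM it was 946.2 and 1172 in replicate 1, and 890.3 and 1106 in replicate 2, in the same order. The log2 ratios were -0.16 at 5 mM and -0.26 and -0.17 at 20 mM, with a mean of -0.19 ± 0.054 (SD, n = 3 arrays) and an adjusted p of 0.0309. The second Sstr5 spot, of sequence AF035777, did not share this difference. Its log2 ratios were 0.04, 0.01 and -0.01, with a 95% interval of the mean from -0.07 to 0.09, which lies above the interval of the first spot, from -0.28 to -0.11. The call therefore belongs to 1 spot and not to the gene. The remaining somatostatin receptor spots did not pass.

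Each of the 6 calls was lost when at least 1 array was left out of the limma fit, which also leaves fewer degrees of freedom. Without 20 mM replicate 1 the adjusted p was 0.0722 for Tacr1, 0.110 for Sstr5 U85770 and 0.111 for Hrh1. Without replicate 2 it was 0.106 for Drd4, whose mean became 0.16, and 0.0921 for Sstr3. Without the 5 mM array it was 0.0656 for Hrh1 and 0.104 for Sstr3. Grm8 missed the threshold without any one of the arrays, with adjusted p values between 0.0542 and 0.0910. With plain background subtraction or the authors' net values in place of raw intensities, all 6 kept their sign and none passed. Their adjusted p values were between 0.145 and 0.222. In the authors' z-scores, Sstr3 was below 0 in 20 mM replicate 1 (-0.25) and Grm8 in replicate 2 (-0.72). The z-scores given for the remaining spots that passed had the sign of the reported mean. Median centring, which leaves the print blocks in, raised the means to 0.79 for Drd4, 0.92 for Sstr3 and 0.49 for Grm8.

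**Figure D2:**
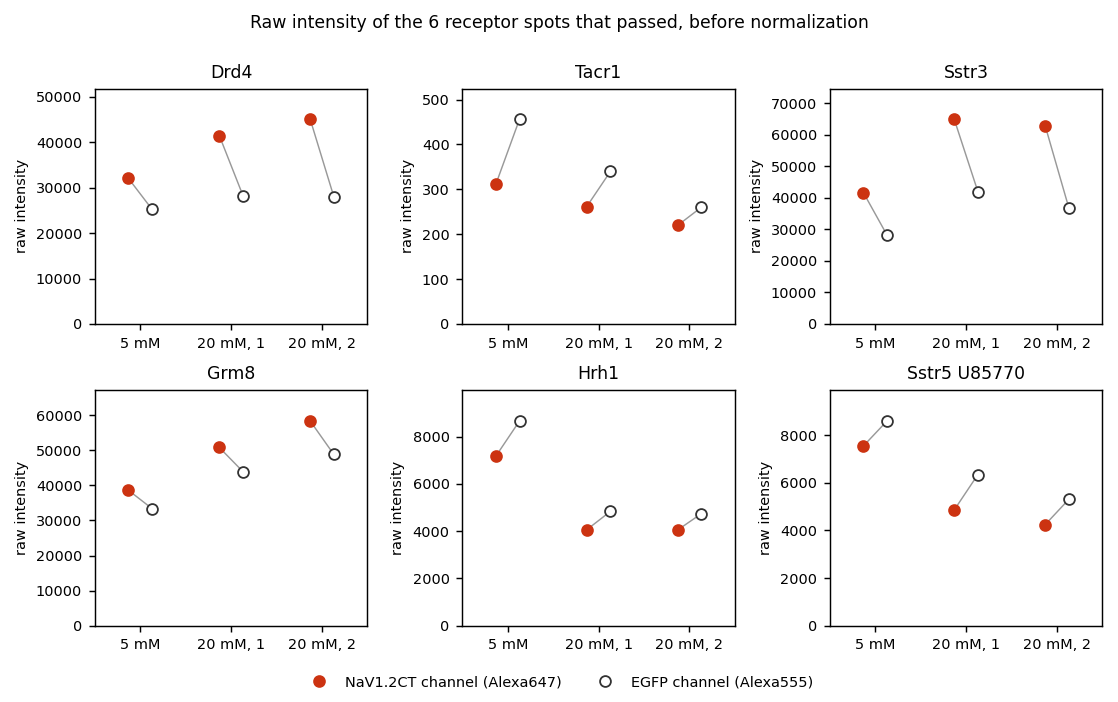
Raw intensity (y axis, linear, from 0) of the 6 receptor spots that passed, on each array (x axis), with NaV1.2CT as filled and EGFP as open points. Drd4, Sstr3 and Grm8 are brighter in NaV1.2CT on every array, as was Oprd1, a bright spot that did not pass and is not shown. Tacr1, Hrh1 and Sstr5 U85770 are dimmer, as were the gene spots in general.

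**Figure D3:**
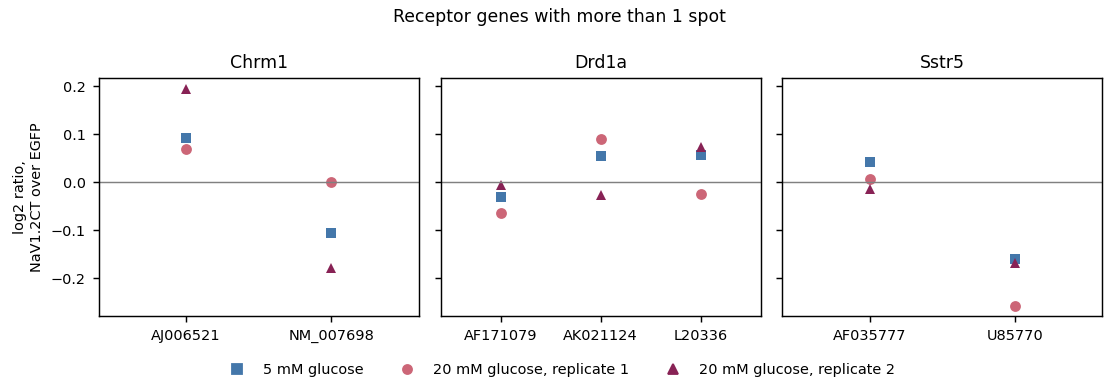
Log2 ratio of NaV1.2CT over EGFP (y axis) for the receptor genes with more than 1 spot (x axis, spot by its sequence accession), with 1 symbol per array. Sstr5 U85770 lies below 0 on every array and Sstr5 AF035777 lies near 0. The 2 Chrm1 spots have means of 0.12 and -0.09, and the 3 Drd1a means lie between -0.03 and 0.04.

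The neuropeptide Y, neurotensin and opioid receptors had no spot that passed. All 4 neuropeptide Y receptor spots had a mean below 0, between -0.07 and -0.02. Their median was above 0 at 5 mM, at 0.03, and below it at 20 mM, at -0.08 and -0.10. Only 1 of the 4 kept its sign on every array, where 46.9% of all probes did. Npy2r, a Gi-coupled receptor of presynaptic endings, had 0.05 at 5 mM and -0.08 and -0.19 at 20 mM. With loess over the whole array or median centring, 3 of the 4 means were below 0. Ntsr1, the neurotensin receptor described in N1E-115, had log2 ratios of -0.04, -0.08 and -0.01, with a mean of -0.04 and a 95% interval from -0.12 to 0.03. Oprd1, the delta opioid receptor, had 0.04, 0.08 and -0.01, with a mean of 0.04 and an interval from -0.05 to 0.12. Oprl1, the receptor for nociceptin, was above 0 on each array (0.08, 0.10 and 0.14), with an adjusted p of 0.110.

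Grouped by the G protein that textbooks give as the main partner, the 37 Gi spots had a median log2 ratio of -0.04, with 15 means above 0 and 3 higher and 1 lower call, where 3.85% of all probes passed. The 21 Gq spots had a median of 0.01, with 11 means above 0 and 1 call in each direction. The 13 Gs spots had a median of 0.04 and no call, with 8 of their means above 0. P2ry10 and the spot listed as P2ry5 were given no class.

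At 20 mM glucose alone, 3 of the 73 receptor spots passed, or 4.11%, where 2.11% of all probes did, 0.689% as higher and 1.42% as lower. They were Drd4 (mean log2 ratio 0.32, adjusted p 0.0281) and Tacr1 (0.25, 0.0311) as higher and Sstr5 U85770 (-0.21, 0.0491) as lower in NaV1.2CT cells. The same spots passed over all 3 arrays, which include these 2 arrays. Hrh1 had a mean of -0.18 with an adjusted p of 0.0656, Grm8 had 0.15 with 0.0910, and Sstr3 had 0.18 with 0.104. At an unadjusted p under 0.05 the shares were 32.9% of receptor spots and 22.2% of all probes.

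No receptor spot passed the test of the difference between glucose levels, where 0.0276% of all probes passed. At an unadjusted p under 0.05 there were 5 receptor spots, or 6.85%, where 7.5% of all probes met it, and the lowest adjusted p was 0.598. Those 5 were Drd4, Sstr4, Hrh4, Npy2r and Htr4, named after their values were seen. For Drd4 the 5 mM ratio minus the 20 mM mean was -0.25, with a 95% interval from -0.45 to -0.05. For Npy2r it was 0.18, with an interval from 0.01 to 0.36. The 5 mM group had 1 array, which was assumed to vary like the others, and it belongs to another numbered array series than the 20 mM arrays, so glucose and array series cannot be told apart. The 20 mM level is taken from the sample labels, since the protocol for growth gives low-glucose DMEM throughout.

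The signalling partners and peptide ligands of the receptors gave 1 call among 82 spots, where 3.85% of all probes passed. Of 89 listed symbols for G protein subunits, adenylyl cyclases, phospholipases C beta, RGS proteins, receptor kinases, arrestins and peptide ligands, older aliases included, 75 were on the array. The median mean log2 ratio of these spots was 0.02. The call was 1 of 3 spots of Gnaq, the alpha subunit of Gq, which was lower in NaV1.2CT cells with log2 ratios of -0.23, -0.08 and -0.24 and an adjusted p of 0.0484. The other Gnaq spots had means of 0.01 and -0.04 and did not pass. None of the 12 peptide ligand spots passed, and 10 of their means were above 0, with the highest at 0.09. None of the 7 adenylyl cyclase, 5 phospholipase C beta and 19 RGS spots passed.

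Of the 15 sympathetic marker spots, Isl1 (a transcription factor of sympathetic and motor neurons) and Nefm (a neurofilament subunit) were higher in NaV1.2CT cells, with means of 0.18 and 0.16 and adjusted p values of 0.0420 and 0.0461, where 1.17% of all probes passed as higher. Th, the rate-limiting enzyme of catecholamine synthesis, had a mean of 0.08 and did not pass. None of the 10 glial, 9 fibroblast and 6 blood, liver and muscle marker spots passed. The part of these markers in the receptor calls was not tested.

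The calls differed by brightness. Sstr3, Grm8 and Drd4 had an A of 15.43, 15.46 and 14.99. Among the 207 gene probes with an A from 15 to 17, the range of Sstr3 and Grm8, the median log2 ratio was 0.15 and 94.2% lay above 0. Among the 1063 probes from 14 to 15, the median was -0.006 and 47.4% lay above 0. Drd4 lay at the upper edge of this range, next to the range of Sstr3 and Grm8. The median from 14 to 15 therefore does not show whether probes as bright as Drd4 shared the shift above 0. A second loess over intensity left mean ratios of 0.18 for Sstr3, 0.14 for Grm8 and 0.23 for Drd4, with adjusted p values of 0.0588, 0.0572 and 0.0530, all short of the threshold. Tacr1, Hrh1 and Sstr5 U85770 had an A between 8.46 and 12.6 and passed that fit, with adjusted p values of 0.0260, 0.0363 and 0.0337. The part of brightness in the 3 calls of bright spots was not tested further.

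**Figure D4:**
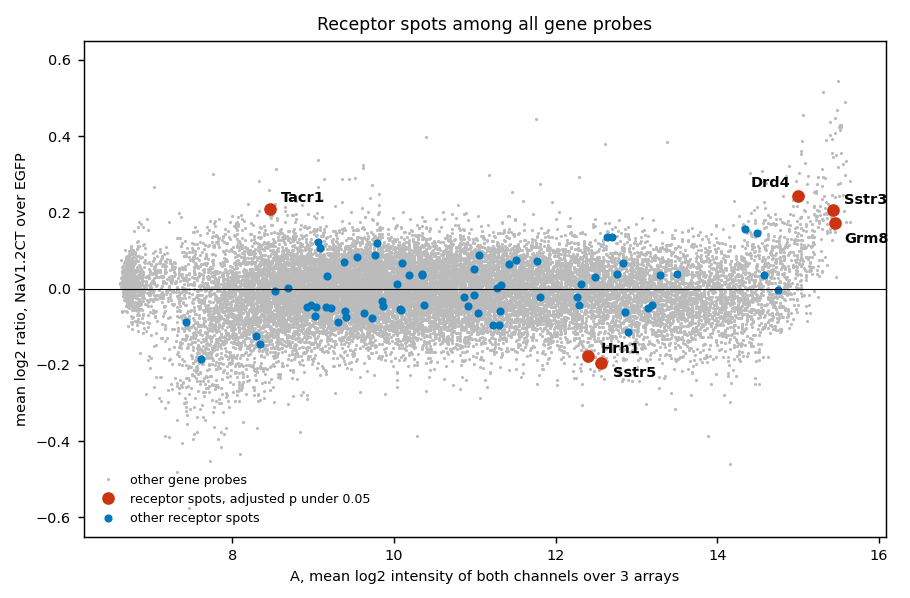
Mean log2 ratio of NaV1.2CT over EGFP over 3 arrays (y axis) against A, the mean log2 intensity of both channels (x axis), for receptor spots that passed (red), other receptor spots (blue) and all other gene probes (grey). Sstr3 and Grm8 sit at the bright end, where 94.2% of probes with an A from 15 to 17 lie above 0, Drd4 sits just below it at an A of 14.99, and Tacr1 sits among dim probes.

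**Figure D5:**
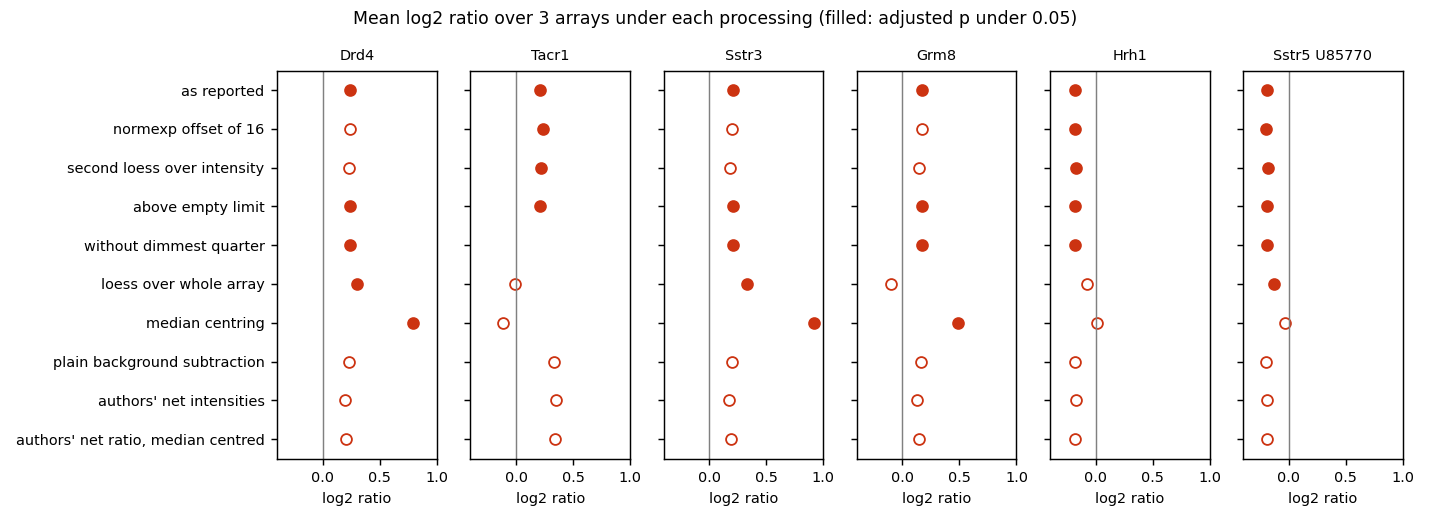
Mean log2 ratio over 3 arrays (x axis) of each receptor spot that passed (panels), under the reported and 9 other ways of processing (rows), with filled points for an adjusted p under 0.05. Tacr1, Grm8 and Hrh1 cross 0 under loess over the whole array or median centring, and no point is filled under plain subtraction or the authors' net values.

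Promoter windows are shown for 3 genes that passed, Tacr1 (a dim spot, higher), Drd4 (a bright spot, higher) and Hrh1 (lower). The windows hold the 250 bases before the annotated start. They are from RefSeq on GRCm38.p6, 5′ to 3′ on the gene's strand, at chr6:82402225-82402474 for Tacr1, chr7:141291768-141292017 for Drd4 and chr6:114397686-114397935 for Hrh1, the most upstream of its 4 windows, all on the plus strand. Capitals mark the motifs searched on both strands.
Tacr1: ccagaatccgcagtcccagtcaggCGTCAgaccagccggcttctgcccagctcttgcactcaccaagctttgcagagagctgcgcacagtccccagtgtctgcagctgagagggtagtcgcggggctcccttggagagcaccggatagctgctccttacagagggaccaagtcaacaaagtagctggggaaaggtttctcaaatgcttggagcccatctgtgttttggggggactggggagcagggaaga
Drd4: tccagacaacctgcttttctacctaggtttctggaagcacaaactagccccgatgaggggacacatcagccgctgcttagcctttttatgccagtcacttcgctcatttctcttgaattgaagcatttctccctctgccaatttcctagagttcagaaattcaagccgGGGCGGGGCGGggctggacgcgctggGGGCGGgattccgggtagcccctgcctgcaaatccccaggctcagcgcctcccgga
Hrh1: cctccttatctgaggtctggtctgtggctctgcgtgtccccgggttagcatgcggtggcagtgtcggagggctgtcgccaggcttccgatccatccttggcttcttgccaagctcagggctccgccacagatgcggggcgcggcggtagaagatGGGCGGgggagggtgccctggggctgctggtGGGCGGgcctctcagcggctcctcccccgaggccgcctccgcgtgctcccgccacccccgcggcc
The motifs were the cyclic AMP response element (TGACGTCA), its half-site (TGACG, which lies within it), the GC box (GGGCGG), the E-box (CACGTG) and the TATA box (TATAAA). The Tacr1 window held 1 half-site, which reads CGTCA on the strand shown. Drd4 held 3 GC boxes, of which the first 2 overlap, and Hrh1 held 2 GC boxes. None of the 3 windows held the full response element, an E-box or the TATA letters. Of the 32851 windows of this length, 17.8% held a half-site, 32.7% a GC box and 1.55% the full element. Of the 69 receptor genes, 53 had a window. A match is a description of the letters and not a binding site.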

How the data were processed

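Each of the 3 arrays had 23232 spots in 48 print blocks, with 1235 empty and 231 GAPDH control spots. Per the file headers, each deposited intensity, raw or background, is a mean over a spot in 1 channel. The authors also deposited net intensities, their ratio (EGFP over NaV1.2CT, the opposite direction to that used here) and a z-score. The deposited score equals the series' value table, and the steps by which the authors made the score, the scanner and the software are not given in the sources used here.

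Intensities were corrected with limma's normexp at an offset of 50, and log2 ratios were normalized by loess within print blocks, with empty spots at weight 0. Print block accounted for 40.4% to 54.1% of the variance of log ratios under whole-array loess, and for at most 0.205% under this loess. Repeat spots of 1 sequence were averaged, which made 21761 probes of 21766 gene spots, with no filter on intensity. limma 3.58.1 in R 4.3.3 (lmFit, eBayes) tested the mean of 3 arrays, the mean of the 20 mM arrays, and 5 mM minus 20 mM, two-sided, with Benjamini-Hochberg adjustment over all probes. These fits had 2, 1 and 1 residual degrees of freedom, with prior degrees of freedom of 7.16, 7.54 and 7.54. The number of arrays limits the precision. The fits were tested on simulated data.

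Receptor spots were named by rule: those that passed in any fit, the largest mean ratio in size of each family among spots above the empty limit on every array, Chrm1, Chrm4, Hrh1, Ntsr1 and Oprd1, and every gene with more than 1 spot, 24 spots in all. Receptors given values outside this rule are marked in the text. The markers Chga, Phox2a, Th and Thy1 were named after their values were seen. Signalling genes were named where they passed. The members, lists and tests were chosen with earlier results of these data known. Alternatives changed the normalization, the background correction, the starting values, the filter on dim probes and the arrays used.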

Additional observations from a re-analysis of the deposited data

How the results depend on the processing

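The count of receptor spots that passed depended on the processing. Over 3 arrays it was 6, and it became 30 with loess over the whole array, 29 with median centring, 3 with a second loess over intensity, 0 with plain background subtraction, 3 with an offset of 16, 0 from the authors' net intensities, 0 from their ratio, and 3 of 49 spots with a z-score on every array. With loess over the whole array 7604 of 21761 probes passed and with median centring 8782, against 837 as reported, while plain subtraction left 2. Of the probes tested, 3.68% passed with the second loess, 3.07% with the offset of 16 and 4.3% with the z-scores. At 20 mM glucose the count of receptor spots was 3, where 2.11% of all probes passed. It became 26 with loess over the whole array, 28 with median centring and 7 with a second loess over intensity. In these fits 35.1%, 37.2% and 4.43% of all probes passed, in that order. The count was 0 with plain subtraction and from both kinds of net value, where at most 0.654% of all probes passed. It was 5 among spots above the empty limit, where 4.07% of such probes passed. For the difference between glucose levels it became 1 (Hrh2) with median centring, where 0.758% of all probes passed against 0.0276% as reported. It was 0 in the other fits run, where at most 0.203% of all probes passed. Leaving out 1 array gave between 2 and 3 spots. They were Drd4 and Sstr3 without 20 mM replicate 1, and Tacr1, Sstr5 and Hrh1 without replicate 2. Without the 5 mM array they were Drd4, Tacr1 and Sstr5. Of all probes, 2.16%, 3.48% and 2.11% passed in these fits, in that order.

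Over 3 arrays, Chrm4 became -0.15 (also -0.15 at 20 mM), Grm8 -0.10 and Tacr1 -0.0096 with loess over the whole array, and with median centring Tacr1 became -0.11 (-0.031 at 20 mM) and Hrh1 0.016; the cause was not tested. Of the values of the 24 named spots under the alternatives, 238 of 303 over 3 arrays and 221 of 279 at 20 mM kept their sign and, where tested, their side of the threshold. Calls were lost in 39 and 13, gained in 13 and 24, and the sign turned in 8 and 19 with no call and in 5 and 2 with a call. The median over receptor spots moved by less than the spread between arrays in every alternative run. The z-scores gave no median, since their scale differs. No paired analysis of the glucose levels was possible because they share fewer than 2 replicate numbers. NaV1.2CT and EGFP were compared within each array. Signal over background limits Adrb3, Grm5 and Htr1b, which were not above the empty limit on every array.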
